A study of Mus musculus with 110 samples.

Results

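The 3 VH segments described here lie near the D-proximal end of the mouse Igh locus, and the sequence of each is closest to Ighv5-9 among the V segments of mm9. They were chosen by position: junctions on chromosome 12 within 100 bp of 114919648, 115015512 and 115055836 belong to the segments Ighv5-9-like_114919648 (V1), Ighv5-9-like_115015512 (V2) and Ighv5-9-like_115055836 (V3). These positions are those of the deposited files, which refer to mm9 with a separately sequenced Igh locus built in, so they are not plain mm9 coordinates. The rule found 1330 junctions at V1, 722 at V2 and 2966 at V3, together 5018 of the 3602400 junctions in 98 libraries and of the 312039 junctions in the VH region (114829805 to 117639092). The members were chosen because their use differed between the CTCF degron groups and other groups, so every contrast of their use with a CTCF degron group is given as values with no test. Their shares in the other groups were also known then. Tests of their use among those groups are thus not independent of the choice, and their p-values are descriptive. The reading frame of their joins, which the choice did not use, was compared by a test. No junction lay 91 to 100 bp from any of the 3 positions, and 0, 1 and 1 lay in the 100 bp beyond the window.

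The study mapped V(D)J joins by linear-amplification translocation sequencing from a fixed bait in JH4; a read starts in the bait and crosses the junction into whatever DNA it was joined to, the prey. All cell lines were v-Abl transformed pro-B cells that lack RAG2 and carry an Eμ-Bcl2 transgene; they were given RAG2 by nucleofection and arrested with 3 µM STI-571, which inhibits the Abl kinase, over 4 days. Auxin (IAA) at 500 µM was added 6 h earlier and kept on in the treated groups, and NT denotes cells without it. Treated and untreated replicates numbered 6 each for the CTCF degron line, 3 each for the Rad21 degron line and 4 each for the Rad21 degron line that also lacks IGCR1. There were 4 of each for the parental cells, for cells with only OsTIR1 knocked in (the auxin receptor that IAA acts through) and for cells with only the CTCF-mAID-GFP tag. Bone marrow pro-B cells of wild-type 129SV mice had 6 replicates; the labels of 5 of them give a sort for B220+CD43+IgM- cells. The labels do not say whether a line is 1 clone or whether replicates were separate cultures or animals, so p-values measure the spread between these samples, which may be technical. Replicates held 1263 to 231023 junctions, and junction data carry no marker expression against which the cell type could be checked.

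Ighv5 (VH7183) segments lie interspersed with Ighv2 (VHQ52) segments at the D-proximal end of the locus. Each V segment is followed by a recombination signal sequence (RSS), a heptamer and a nonamer around a spacer, which RAG cuts. RAG bound at the recombination centre over the JH segments scans chromatin that cohesin extrudes past it, and CTCF-bound elements, those of IGCR1 between the D and VH segments and those just downstream of many proximal VH RSSs, can hold the scan.

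The coding ends of the members were read from the deposited reads, and they are shown with that of the segment at 114998635, because the latter is nearly a copy of V3. Each sequence runs 5′ to 3′ through 288 bases, and capitals mark the 7 bases that are not the same in all 4. The last base of each, a c, lies just past the untrimmed coding end. In bone marrow, 16, 13 and 65 junctions at V1, V2 and V3 ended at it. The heptamer begins with the same base, so this c may belong to the RSS.

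V1 (114919648): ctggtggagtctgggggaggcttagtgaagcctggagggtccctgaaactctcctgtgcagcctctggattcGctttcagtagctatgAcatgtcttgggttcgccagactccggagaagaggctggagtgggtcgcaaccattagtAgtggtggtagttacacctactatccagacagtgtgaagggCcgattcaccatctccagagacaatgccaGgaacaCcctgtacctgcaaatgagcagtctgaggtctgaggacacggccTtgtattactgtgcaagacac
Copy of V3 (114998635): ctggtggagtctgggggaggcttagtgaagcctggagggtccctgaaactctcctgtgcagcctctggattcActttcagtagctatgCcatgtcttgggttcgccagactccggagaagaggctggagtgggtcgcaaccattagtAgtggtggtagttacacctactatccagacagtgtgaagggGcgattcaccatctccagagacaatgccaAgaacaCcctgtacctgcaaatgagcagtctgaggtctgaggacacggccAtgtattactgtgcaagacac
V2 (115015512): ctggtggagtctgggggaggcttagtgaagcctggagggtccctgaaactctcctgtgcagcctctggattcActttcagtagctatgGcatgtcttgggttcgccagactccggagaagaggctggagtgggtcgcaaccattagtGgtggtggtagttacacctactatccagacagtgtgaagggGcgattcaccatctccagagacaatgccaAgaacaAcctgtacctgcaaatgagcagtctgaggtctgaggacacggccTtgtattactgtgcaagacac
V3 (115055836): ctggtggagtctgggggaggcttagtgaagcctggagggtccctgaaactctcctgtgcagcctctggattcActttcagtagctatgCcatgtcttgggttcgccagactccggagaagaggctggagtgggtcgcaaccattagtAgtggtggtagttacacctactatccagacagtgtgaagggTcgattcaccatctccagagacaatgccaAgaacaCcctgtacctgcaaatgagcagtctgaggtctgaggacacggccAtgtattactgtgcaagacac

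Over these 288 bases V1 and V2 differed at 6 positions, V1 and V3 at 5, and V2 and V3 at 5. V3 and its copy differed at 1 position, G189T, counted from 1 at the 5′ end of the stretch with the base of the copy given first. The base at that site tells their reads apart: in the CTCF degron line with IAA, 918 of the 975 reads placed at V3 held the base of V3, 13 held that of the copy and 44 did not reach it. In bone marrow these numbers were 833, 8 and 27 of 868 reads. The consensus read in bone marrow and in the CTCF degron line with IAA had 0 differences in each of the 3 members. Against mm9 Ighv5-9 the identity was 97.0% for V1 and 97.7% for V2 and for V3. A segment farther out, at 115120456, was closer to Ighv5-9, at 99.3%, and 6 of the 148 VH segments had Ighv5-9 as their closest symbol. The label Ighv5-9-like therefore holds for the family and closest symbol, but none of V1, V2 and V3 matched the Ighv5-9 of mm9 exactly. V1 follows an Ighv2-4-like segment, as Ighv5-9 does in mm9. Whether V1 is an allele of Ighv5-9 in the separately sequenced locus was not tested.

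Minus-orientation reads, which run from the RSS side, show what follows the coding end. V1 had 10 of them and V2 had 5, of which the 6 and 2 that held the heptamer CACAGTG were used. The V2 stretch thus rests on 2 reads. V3 had none, so its RSS could not be read. The 100 bases after the coding end are given with those of mm9 Ighv5-9 (chr12:114899880-114899979, minus strand, directly downstream of the V exon), with the heptamer, the nonamer and the stretch that matched the 12-base core of the CTCF binding motif, searched with its variable positions free, in capitals.

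V1 RSS side: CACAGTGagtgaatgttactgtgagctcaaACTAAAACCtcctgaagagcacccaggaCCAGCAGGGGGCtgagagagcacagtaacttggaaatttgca
V2 RSS side: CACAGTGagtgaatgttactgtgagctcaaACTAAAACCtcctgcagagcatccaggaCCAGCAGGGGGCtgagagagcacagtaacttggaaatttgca
mm9 Ighv5-9 RSS side: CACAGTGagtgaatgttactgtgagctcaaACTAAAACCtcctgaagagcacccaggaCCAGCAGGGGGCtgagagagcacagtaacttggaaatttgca

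The 39 bases of the RSS were the same in all 3. Over the 100 bases V1 matched mm9 and V2 differed from it at 2. The motif, searched on both strands, was found within 100 bases downstream of 24 of 110 V segments annotated in mm9 (21.8%), always on the strand of the segment. It was present in 9 of 9 Ighv5 segments, in 7 of 10 Ighv2 segments and in 8 of 91 segments of other families (8.8%). A match to these letters is a description of the sequence, and binding was not measured.

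Counting from the D array, V1, V2 and V3 are segments 8, 13 and 15 of 148, at 88.8, 184.7 and 225.0 kb from the first used VH segment (114830805). The nearest used segment on the D side of V1 is Ighv2-4-like (114911185, 8.5 kb away) and on the other side Ighv5-12-like (114961492, 41.8 kb away). V2 lies between an Ighv2-6-like segment (115006778, 8.7 kb) and an Ighv2-2-like one (115039214, 23.7 kb). V3 lies 16.6 kb beyond 115039214 and 17.3 kb before another Ighv2-2-like segment, 115073093. Nearer the D array, Ighv5-2 (VH81X, 5.57 kb from the first used VH) took 49.4 ± 3.09% of VH junctions in untreated parental cells, 15.1 ± 4.93% in the untreated CTCF degron line, 1.89 ± 0.39% with IAA and 11.4 ± 1.88% in bone marrow.

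**Figure D1:**
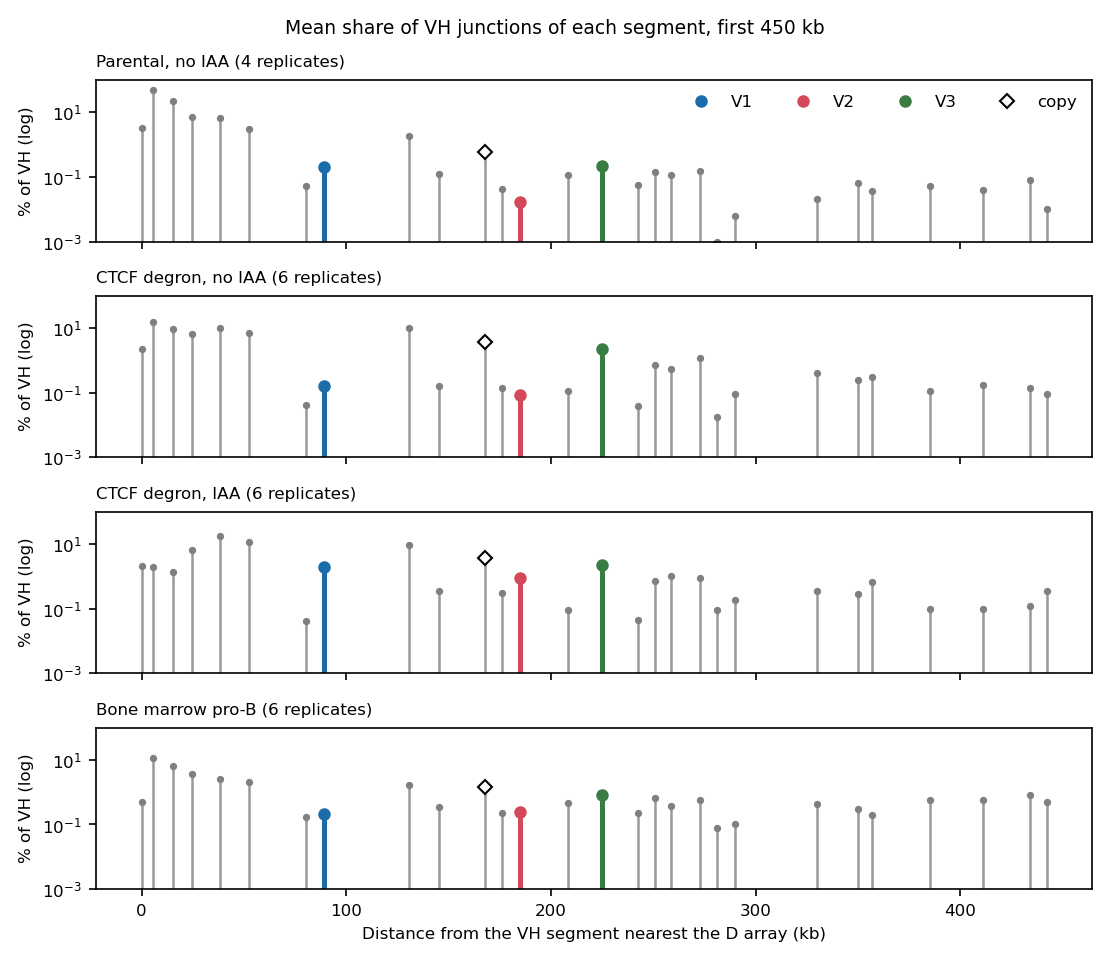
Mean share of all VH junctions (percent, log scale) taken by each VH segment of the D-proximal part of the locus, by distance in kb from the first used VH segment, in 4 groups. V1, V2, V3 and the copy of V3 are coloured or marked, other segments are grey; V1 and V2 stand at 1.89% and 0.882% in the CTCF degron line with IAA and at 0.162% and 0.0881% without it.

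As a share of all junctions, all 3 segments were used most in the CTCF degron line with IAA. V1 took a lowest, median and highest share of 0.428%, 0.501% and 0.691% of all junctions over the 6 replicates (mean 0.520 ± 0.0928%, SD, 921 junctions). V2 took 0.139%, 0.249% and 0.383% (0.245 ± 0.0836%, 428 junctions). V3 took 0.458%, 0.528% and 1.07% (0.623 ± 0.237%, 1059 junctions). V1 and V3 overlapped in their range and V2 lay below both in every replicate. Without replicate 1, which had the highest share of each, the mean of V3 was 0.533%.

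In the same line without IAA the order changed, with V3 well above V1 and V2. V1 had 6, 3, 1, 2, 1 and 3 junctions in replicates 1 to 6 (0.00742 ± 0.00776% of all junctions) and V2 had 2, 0, 2, 1, 2 and 0 (0.00338 ± 0.00342%). V3 had 28, 50, 20, 34, 61 and 39, a share of 0.0596% to 0.128% (0.0907 ± 0.0281%). The lowest V3 replicate lay above the highest V1 replicate, at 0.0228%, while V1 and V2 overlapped.

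Set side by side, the mean shares with and without IAA stood in a ratio of 70.1 for V1, 72.5 for V2 and 6.87 for V3, and the replicates of the treatments did not overlap. How many of the other VH segments also did not overlap was not counted, here and in the folds below. The V1 and V2 ratios rest on 16 and 7 junctions without IAA. VH joins as a whole also differed, at 27.5 ± 2.78% of all junctions with IAA and 4.05 ± 1.36% without. Among VH joins only, V1 took 1.89 ± 0.221% with IAA and 0.162 ± 0.104% without, and V2 0.882 ± 0.254% and 0.0881 ± 0.103%, ratios of 11.6 and 10.0. V3 took 2.26 ± 0.771% and 2.31 ± 0.624%, a ratio of 0.98 with overlapping replicates. The copy of V3 had the same pattern as V3: 0.989 ± 0.138% of all junctions with IAA, 0.150 ± 0.0562% without, and 3.61% and 3.71% of VH junctions.

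In untreated parental cells V1 had 2, 2, 12 and 10 junctions, V2 had 0, 0, 4 and 4, and V3 had 1, 2, 27 and 18, in replicates of 14866 to 231023 junctions. The mean shares were 0.00861 ± 0.00447%, 0.000877 ± 0.00101% and 0.00970 ± 0.00352%. V1 and V3 could not be told apart by their spread, and V2 lay below both. The untreated CTCF degron line stood at 0.86 times the parental share for V1 and at 9.35 times for V3, where the replicates did not overlap; the 3.85 for V2 compares 7 with 8 junctions. Against untreated parental cells, the CTCF degron line with IAA stood at 60.4, 279 and 64.2 times for V1, V2 and V3. With identical junctions counted once, these folds were 49.0, 113 and 36.9, and the untreated degron line stood at 0.86, 1.93 and 6.91 times the parental share. All CTCF degron libraries, with and without IAA, came from a sequencing run that no other group shares. Run and line therefore cannot be told apart in any contrast of that line with another group, here or below.

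**Figure D2:**
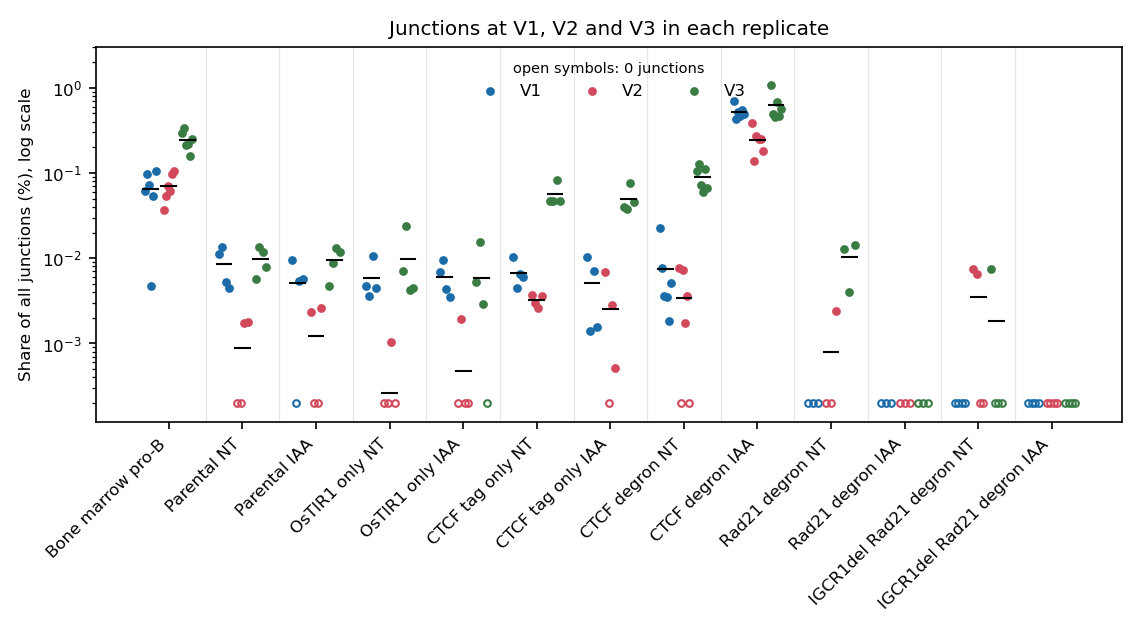
Share of all junctions (percent, log scale) at V1 (blue), V2 (red) and V3 (green) in each replicate of the 13 groups, with a bar at the group mean and open symbols for replicates with 0 junctions. The 6 CTCF degron replicates with IAA lie highest for each segment, from 0.139% for V2 to 1.07% for V3.

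Bone marrow pro-B cells used all 3 segments. V1 took 0.00475%, 0.0669% and 0.104% of all junctions as lowest, median and highest of 6 replicates (0.0654 ± 0.0357%, 245 junctions), with 2 junctions in replicate 4 and 16 to 65 in the others. V2 took 0.0365%, 0.0659% and 0.104% (0.0704 ± 0.0258%, 235 junctions), and V3 took 0.160%, 0.236% and 0.338% (0.245 ± 0.0632%, 896 junctions). V3 lay above V1 and V2 in every replicate, and V1 and V2 overlapped. As shares of VH junctions the means were 0.206 ± 0.100%, 0.241 ± 0.115% and 0.793 ± 0.112%. The CTCF degron line with IAA exceeded bone marrow by 7.95 times for V1, 3.48 times for V2 and 2.54 times for V3 as a share of all junctions, and by 9.17, 3.66 and 2.86 times as a share of VH junctions, with no overlap of replicates. Overlap at the other VH segments was not counted. The files mark reads as duplicates in bone marrow replicates 1 to 3 only, 67957 of 79561, 47910 of 57972 and 78541 of 89909 junctions, and the mark was not used. Among the unmarked junctions of these replicates V3 took 0.431%, 0.487% and 0.431% of all, so replicate 2 would lie above the lowest CTCF degron replicate with IAA, and 0.688%, 0.824% and 0.745% of VH junctions. V1 there took 0.103%, 0.209% and 0.132% of all junctions and V2 0.112%, 0.119% and 0.106%, all below the lowest replicates with IAA.

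Against untreated parental cells, all 3 segments were more frequent in bone marrow as a share of all junctions. The minimum for a test, a mean number of junctions per replicate, was taken over both groups together. V1 and V2 had 26 and 8 junctions in parental cells, under that minimum, and reached it only through their 245 and 235 in bone marrow. Their differences and p-values on both scales thus rest on few parental junctions and are descriptive. How many other tested segments entered in this way was not counted. The log2 difference was 3.13 (SE 0.686, adjusted p = 6.36e-05) for V1, 4.78 (SE 0.724, adjusted p = 1.8e-07) for V2 and 4.59 (SE 0.472, adjusted p = 7.82e-11) for V3, by limma with voom weights and Benjamini-Hochberg adjustment over 143 V and D segments. Of those 143, 141 passed (98.6%), 137 of them higher in bone marrow (95.8%), with a median log2 difference of 5.34, above that of each member. With median-of-ratios scaling V1 no longer passed on this scale, at 0.93 (adjusted p = 0.193 by limma). Scaled on VH junctions, the difference was 0.64 (SE 0.617, adjusted p = 0.316) for V1, 2.01 (SE 0.678, adjusted p = 0.00853) for V2 and 1.98 (SE 0.375, adjusted p = 4.32e-05) for V3. On that scale 114 of 123 VH segments passed (92.7%), 108 of them higher (87.8%) and 6 lower, with a median of 2.98. V1 was thus among the few that did not pass; without bone marrow replicate 4 its difference was 0.997 with adjusted p = 0.0419.

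Most segments of the whole locus were higher in bone marrow, and those of the Ighv5 and Ighv2 families are given beside these shares. As a share of all junctions, 18 of 19 Ighv5-family segments tested and 16 of 16 Ighv2-family segments were higher in bone marrow. As a share of VH junctions, 12 of 19 Ighv5 segments were higher and 4 lower, with a median log2 difference of 1.98, and 14 of 16 Ighv2 segments were higher and 2 lower, with a median of 2.59. Of the 8 tested segments from V1 to V3, 6 were higher and 0 lower on that scale. With median-of-ratios scaling there, V2 and V3 no longer passed (log2 differences of 0.42 and 0.37) and V1 was at -0.97. Bone marrow and parental libraries came from different sequencing runs, so run and cell source cannot be told apart; within bone marrow, the mean share of VH junctions in the pair of runs was 0.231% and 0.180% for V1, 0.164% and 0.319% for V2, and 0.831% and 0.755% for V3.

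In the line that carries the CTCF tag but no OsTIR1, V3 was also more frequent than in parental cells. Without IAA, V3 took 0.0474%, 0.0468%, 0.0826% and 0.0471% of all junctions in replicates 1 to 4 (51, 63, 127 and 79 junctions). The parental values were 0.00568%, 0.0135%, 0.0117% and 0.00800%. The groups did not overlap, and the log2 difference was 2.44 (SE 0.44, adjusted p = 0.00147 by limma); 26 of 51 segments passed in this comparison (51%), 21 of them higher in the tag-only line (41.2%). As a share of VH junctions it was 2.93 (SE 0.416, adjusted p = 0.000179), with 24 of 33 segments past the threshold (72.7%), 21 of them higher (63.6%).

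V1 and V2 fell below the minimum of 10 junctions per replicate in this comparison. V1 took 0.0102%, 0.00446%, 0.00650% and 0.00597% in the tag-only line, within the parental range of 0.00444% to 0.0135%. V2 took 0.00372%, 0.00297%, 0.00260% and 0.00358%, against a parental maximum of 0.00178%. The untreated CTCF degron line stood at 1.09, 1.05 and 1.62 times the share of the untreated tag-only line for V1, V2 and V3, with overlapping replicates. For V3 the overlap rests on tag-only replicate 3; the other 3 tag-only replicates lay below every degron replicate, and without replicate 3 the fold was 1.92. All tag-only replicates share a run with parental replicates 1 and 2, which hold 1 and 2 V3 junctions. Within that run the difference was 2.20 (adjusted p = 0.678), and 2.27 on the VH scale (adjusted p = 0.563), with 0 segments past the threshold on either scale.

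Of the segments from V1 to V3, 4 of 4 tested were higher in the tag-only line as a share of all junctions, with a median log2 difference of 2.11. These 4 include V3 itself and its copy. Of the Ighv5 family, 7 of 10 tested were higher and 3 lower (median 1.57), and of the Ighv2 family, 3 of 5 were higher and 1 lower (median 1.95). Over all 51 segments, 21 were higher (41.2%) and 5 lower, with a median of 1.04. Of the 33 VH segments among them, 20 were higher and 4 lower.

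V3 did not pass the test for IAA by itself in the parental or the tag-only line. In parental cells V3 had 52 junctions with IAA and 48 without, shares of 0.00966 ± 0.00380% and 0.00970 ± 0.00352%. The log2 difference was 0.05 (SE 0.332, adjusted p = 0.94 by limma; 28.1% of 32 segments passed), and 0.08 on the VH scale, where 0 of 14 segments passed and 0 had an unadjusted p under 0.05. In the tag-only line V3 took 0.0401%, 0.0382%, 0.0769% and 0.0453% with IAA, which overlapped the untreated values but lay below the untreated value of the same replicate number in 4 of 4. The difference was -0.19 (SE 0.341, adjusted p = 0.9996 by limma), and 0 of 74 segments passed (0%), with 4 at an unadjusted p under 0.05. With the replicate number as a block it was -0.17 (adjusted p = 0.565 by limma), and 13 of 74 segments passed (17.6%). On the VH scale it was -0.07, with 0 of 55 segments past the threshold (0%) and 1 at an unadjusted p under 0.05, and -0.04 with the block, where 2 of 55 passed (3.64%). V1 and V2 were too rare to test; V1 had 24 and 26 junctions with and without IAA in parental cells and 30 and 37 in the tag-only line, and V2 had 6 and 8, and 15 and 18.

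The OsTIR1-only line resembled the parental line in its values. Without IAA it held 17, 1 and 23 junctions at V1, V2 and V3 of 259025, and with IAA 14, 1 and 13 of 236388. All 3 lay under the minimum for a test.

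The untreated Rad21 degron line had almost no junctions at V1 and V2 and used V3 at about the parental level as a share of all junctions. Without IAA, V1 had 0 junctions of 113444, which allows a share of up to 0.00264%, V2 had 1 and V3 had 13 (0.0104 ± 0.00560%, against 0.00970 ± 0.00352% in parental cells). As a share of VH junctions V3 stood at 0.555 ± 0.306%, against 0.211 ± 0.0723% in parental cells, on too few junctions for the test. With IAA, 5566 junctions held 0 at all 3 segments, which allows up to 0.0539% and is above the parental level of each, so a difference from parental cells was not detectable at this depth. With IGCR1 deleted, a line for which b libraries alone were used, VH joins were frequent, at 50.7 ± 2.33% of all junctions without IAA. Even so, only 0, 2 and 1 of 24616 VH junctions were at V1, V2 and V3, and the limit for V1 was 0.00617% of all junctions. With IGCR1 deleted and IAA, 8434 junctions, 511 of them in the VH region, held 0 at each of them. This allows up to 0.0356% of all junctions, above the parental level of each, so a difference from parental cells was not detectable here either.

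Ranked by mean share of VH junctions among 148 segments, V1, V2 and V3 stood at places 12, 19 and 8 in the CTCF degron line with IAA and at 91, 85 and 38 in bone marrow. In untreated parental cells they stood at 13, 69 and 12, in the untreated CTCF degron line at 61, 87 and 9, and in the tag-only line without IAA at 56, 81 and 10. V3 thus held one of the first 12 places in these 4 cell-line groups, whereas V1 ranged from 12 to 61 and V2 from 19 to 87. The place of V1 in untreated parental cells rests on few junctions. Its mean share of VH junctions was 0.3205% in the run of replicates 1 and 2 (4 junctions) and 0.0902% in that of replicates 3 and 4 (22 junctions). In parental cells with IAA, V1 stood at 28. Elsewhere V3 stood at 10 and 18 in the OsTIR1-only line without and with IAA and at 12 in the tag-only line with IAA. It stood at 14 in parental cells with IAA, at 16 in the untreated Rad21 degron line and at 33 in the untreated IGCR1-deleted line.

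The adjacent Ighv2-family segments were rare beside the members in the CTCF degron line with IAA. There 4 of them (114911185, 115006778, 115039214 and 115073093) took 0.0120%, 0.0835%, 0.0247% and 0.0120% of all junctions, each below the mean of V1, V2 and V3. In bone marrow they took 0.0524%, 0.0716%, 0.140% and 0.0709%, of which 0.140% lay above every V1 and V2 replicate and below every V3 replicate. The Ighv5-12-like neighbour of V1 stood above all 3 members, at 2.52 ± 0.543% in the CTCF degron line with IAA and 0.511 ± 0.153% in bone marrow.

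Across the 12 groups with at least 100 VH junctions in every replicate, the segments most like each member were found by Pearson correlation of log2(mean share of VH junctions + 0.001), given as a description of groups that share lines and denominators. V1 was most like an Ighv5-12-like segment (115241777, r = 0.856), an Ighv14-4-like segment (115501873, 0.855) and the Ighv5-9-like segment at 115120456 (0.846). V2 was most like segments closest to Ighv2-6 (115364195, 0.935), Ighv2-9 (115187353, 0.907) and Ighv1-81 (116240676, 0.895). V3 was most like 116240676 (0.984), an Ighv5-6-like segment (115081350, 0.98) and an Ighv1-31-like segment (116433049, 0.978). Among themselves the members were less alike, with r of 0.65 for V1 and V2, 0.735 for V1 and V3, and 0.845 for V2 and V3.

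Each replicate of the CTCF degron, parental, OsTIR1-only, tag-only and Rad21 degron lines has an a and a b library, those of the IGCR1-deleted line have a b library only, and what the letters stand for is not stated in the labels. V3 was recovered at different rates in them. In the CTCF degron line with IAA, V3 took 1.36%, 0.675%, 0.591%, 0.801%, 0.646% and 0.757% of all junctions in the a libraries of replicates 1 to 6. It took 0.80%, 0.325%, 0.330%, 0.573%, 0.287% and 0.375% in their b libraries. The a library was higher in 6 of 6 replicates, by a log2 difference of 0.87 (SE 0.127, adjusted p = 7.46e-08 by limma with the replicate as a block), where 11 of 63 segments passed (17.5%). On the VH scale the difference was 0.71 (adjusted p = 0.000198), with 10 of 49 segments past the threshold (20.4%).

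No excess in the a libraries was detected for V1 and V2. V1 was at -0.27 (adjusted p = 0.159 by limma), and at -0.44 (adjusted p = 0.0367) on the VH scale, lower in a. V2 was at 0.02 (adjusted p = 0.927) and its a and b libraries overlapped. The copy of V3 was higher in a by 0.29 (adjusted p = 0.026), in 6 of 6 replicates, and by 0.13 (adjusted p = 0.465) on the VH scale. The base at which V3 and its copy differ was that of V3 in 99.3% of the V3 reads that reached it in a libraries and in 97.4% in b libraries.

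**Figure D3:**
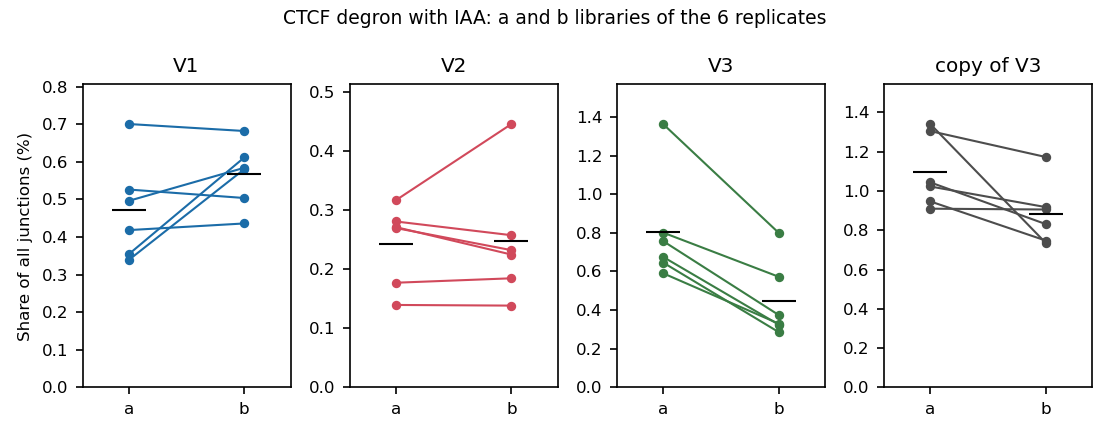
Share of all junctions (percent) in the a and b libraries of each of 6 replicates of the CTCF degron line with IAA, joined by a line per replicate, with black bars at the means, for V1, V2, V3 and the copy of V3. For V3 each line falls from a (mean 0.806%) to b (mean 0.448%).

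V3 was also higher in a libraries in the untreated CTCF degron line and, with IAA, in the tag-only line. In the untreated CTCF degron line a exceeded b in 6 of 6 replicates (0.127 ± 0.0416% and 0.0555 ± 0.0259%; log2 difference 1.24, adjusted p = 0.0027 by limma, with 44% of 25 segments past the threshold). On the VH scale this was 0.50 (adjusted p = 0.145, 16.7% of 12 segments). In the tag-only line the difference was 0.76 with IAA (adjusted p = 0.0147, 5.77% of 52 segments) and 0.88 without (adjusted p = 0.0754, 0 of 46 segments past the threshold). On the VH scale these were 0.49 (adjusted p = 0.276) and 0.59 (adjusted p = 0.42), and 0% of segments passed in each. Parental cells showed no such excess by count, with 22 V3 junctions in a and 26 in b without IAA (a higher in 1 of 4 replicates) and 21 and 31 with it (2 of 4), under the minimum for a test. The copy of V3 was also higher in a libraries of the untreated CTCF degron line, by 0.99 (adjusted p = 0.0079 by limma). In the tag-only line its difference was 0.38 with IAA and 0.66 without (adjusted p = 0.159 and 0.0754 by limma). Over all VH segments tested, the median log2 difference was 0.131 in the CTCF degron line with IAA and 0.505 without. In the tag-only line this median was 0.289 with IAA and 0.279 without. Shares given without a letter sum the a and b libraries of a replicate. Those of the IGCR1-deleted line are of b libraries and bone marrow libraries carry neither letter; the part of the a and b difference in comparisons with them was not tested.

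The joins themselves show how V1, V2 and V3 were joined to JH4. Shown here are the most repeated join of each segment in bone marrow, then a V1 join found in 2 replicates of the CTCF degron line with IAA and a join read 3 times at V3 in that line. The VH end and the JH4 start are in lower case, and capitals mark the bases between them, which hold the D segment and any added nucleotides.

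V1 bone marrow: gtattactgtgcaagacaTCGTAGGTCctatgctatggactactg
V2 bone marrow: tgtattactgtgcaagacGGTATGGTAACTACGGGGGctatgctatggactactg
V3 bone marrow: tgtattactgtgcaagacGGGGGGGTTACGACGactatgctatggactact
V1 CTCF degron with IAA: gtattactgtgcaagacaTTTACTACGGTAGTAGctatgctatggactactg
V3 CTCF degron with IAA: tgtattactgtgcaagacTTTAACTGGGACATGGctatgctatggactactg

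Reads of the same join were common in bone marrow, where replicates 1 to 3 carry the duplicate mark, and rare in the CTCF degron line with IAA. A distinct join was counted by its replicate, VH end, bait end and the bases between. In bone marrow the 245 V1 junctions were 81 distinct joins (33.1%), the 235 at V2 were 76 (32.3%) and the 896 at V3 were 316 (35.3%). All VH junctions there came to 39%, so the members were near the locus as a whole. In the CTCF degron line with IAA the figures were 92.3%, 94.4% and 95.4% for V1, V2 and V3, and 93.7% over all VH junctions. Among joins with bases between VH and JH4, none of a member was found in more than 1 bone marrow replicate. In the CTCF degron line with IAA, 3 such joins of V1 were found in 2 replicates, and 0 of V2 and V3. Joins without bases between were not compared across replicates. The reads carry no molecular identifiers, so copies of 1 molecule and cells of 1 clone cannot be told apart. With each distinct join counted once, the VH-scale difference between bone marrow and parental cells was 0.35 (adjusted p = 0.512 by limma) for V1 and 1.71 (adjusted p = 1.02e-05) for V3, and V2 was below the minimum.

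Joins of V2 and V3 were in frame with JH4 more often in bone marrow than in the CTCF degron line with IAA. The in-frame share of V3 in bone marrow had a lowest, median and highest replicate of 50.0%, 66.8% and 72.9% (63.8 ± 9.39%), against 27.3%, 32.4% and 36.4% with IAA (32.5 ± 3.01%). V2 stood at 33.3%, 82.1% and 89.5% in bone marrow (71.3 ± 22.6%) and at 31%, 36.1% and 42.4% with IAA (36.3 ± 4.94%). V1 stood at 0%, 68.2% and 82.8% (56.2 ± 30.8%) and at 26.9%, 29.3% and 36.8% (30.2 ± 3.85%); the 0% is bone marrow replicate 4, with 2 V1 junctions. The V3 groups did not overlap, and those of V1 and V2 did. By a two-sided exact permutation test over 6 replicates against 6, p was 0.0584 for V1, 0.00866 for V2 and 0.00216 for V3, or 0.0584, 0.013 and 0.00649 after Benjamini-Hochberg adjustment over the 3. With distinct joins counted once, the adjusted exact permutation p was 0.13, 0.0162 and 0.00649. All other VH joins also differed, at 51.2 ± 3.76% in bone marrow and 33.4 ± 0.717% with IAA. Bone marrow and the CTCF degron line came from different sequencing runs, so run and cell source cannot be told apart here.

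**Figure D4:**
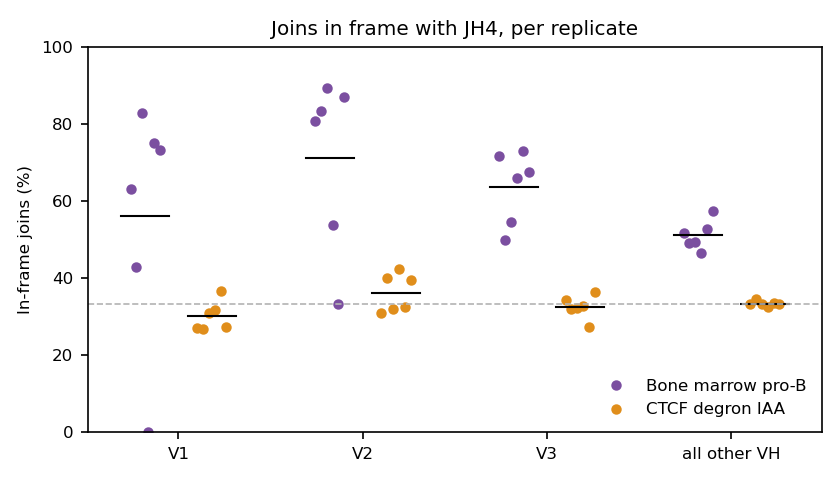
Share of joins in frame with JH4 (percent) in each of 6 bone marrow replicates (purple) and 6 replicates of the CTCF degron line with IAA (orange), for V1, V2, V3 and all other VH joins, with bars at the means and a dashed line at 1 in 3. The V3 replicates lie between 50.0% and 72.9% in bone marrow and between 27.3% and 36.4% with IAA.

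Within each group, features of the member joins were also set against other VH joins of the same replicates, in 24 tests. The smallest p that an exact sign-flip test over 6 replicates can give is 0.03125, which passes adjustment over 24 tests only where most of them reach it, so the values are given as a description. It was reached for the number of VH bases kept after the cysteine codon in the CTCF degron line with IAA, where V1 kept 6.58 ± 0.118, V2 6.64 ± 0.158 and V3 6.39 ± 0.203 bases and other VH joins 6.02 ± 0.0953, higher in 6 of 6 replicates for each (exact p = 0.03125, adjusted p = 0.15). V3 in bone marrow reached it too, with 7.17 ± 0.314 bases kept and an in-frame share above other VH joins in 6 of 6 replicates (63.8% against 51.2%; adjusted exact p = 0.15 for each). Set against joins of other Ighv5-family segments only, the difference in bases kept at V3 with IAA was -0.146. The insert had a median length of 17, 17 and 16 bases at V1, V2 and V3 in bone marrow and 15 at each with IAA, as in other VH joins, at 17 and 15.

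The D segments found in these inserts were those most used in the locus. Among inserts with an identified D, 8 matching bases or more, Ighd2 (DSP2) members made up 51.9%, 71.1% and 60.1% at V1, V2 and V3 in bone marrow, and Ighd1 (DFL16) members 45.8%, 28.2% and 36.7%. In the CTCF degron line with IAA, Ighd2 made up 51.3%, 54.4% and 52.4%, and Ighd1 40.4%, 34.6% and 38.5%. Ighd4 (DQ52), the D nearest JH, made up 6.8%, 8.0% and 6.4% with IAA and 2.3%, 0.7% and 1.7% in bone marrow. Other VH joins held 62.9% Ighd2 and 31.1% Ighd1 in bone marrow and 49.7% and 42.5% with IAA. The share of Ighd1 at the members against other VH joins had an adjusted exact sign-flip p of 0.281 or above in both groups.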

How the data were processed

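Each deposited file lists junction reads, 1 per line, with the place, orientation and sequence of the prey; the files have no count column (per the file headers). Per the labels, the authors aligned reads to a hybrid of mm9 and another Igh sequence; Bowtie2 and mm9 are named in the submitters' processing notes. Groups came from the sample titles, which give IAA for 4 libraries whose treatment label lacks it. The 12 off-target lists were not used. Prey positions of a and b libraries lay 3 bases to either side of those of bone marrow, and this shift was removed. Junctions within 100 bp of a segment were tallied, a and b libraries summed, and shares given as mean ± SD over replicates. Tests used limma 3.58.1 in R 4.3.3 (voom, pseudocount 0.5, all V and D segments with a mean of at least 10 junctions per replicate, Benjamini-Hochberg threshold 0.05), scaled on all junctions or on VH junctions, and were tested on simulated data. The VH scale required 100 VH junctions in each replicate. Limits for 0 junctions are 3 junctions of the total and, without molecular identifiers, cover counting error only. Identity of segments came from matches to mm9 V segments. Reading frame, insert and D were read from the join sequence.

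The segments named were the 3 members, their nearest used neighbours, the first used VH and the 3 segments most like each member; the copy of V3 and 115120456 were added after their values were seen. Members and lists were chosen with earlier results of these data known. The comparison of a with b libraries, distinct joins, the frame comparison, the restriction to 1 run, the folds with identical junctions once or without a replicate, and the shares without marked duplicates were also added after seeing the data. Alternatives were the scale, the minimum, the pseudocount, the window, repeat reads, a or b libraries only, unweighted limma, the replicate block and leaving out each replicate. Deviations of same-numbered replicates correlated in 2 IAA comparisons (mean r over segments 0.771 in the OsTIR1-only and 0.673 in the tag-only line, every pair above 0.1). In the tag-only line, all of 1 run, numbers were therefore taken to pair samples, by the data alone. In the OsTIR1-only line replicates 1 and 2 came from 1 run and 3 and 4 from another in both treatments. Pairing and run cannot be told apart there. In the other comparisons not every pair lay above 0.1.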

Additional observations from a re-analysis of the deposited data

Results flagged for a closer look

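Dixon's ratio, the gap of the highest or lowest replicate to its nearest neighbour over the range of the group, was examined in 58 groups of 4 to 10 values, and 13 exceeded the 95% critical value; chance gives about 1 in 20. V3 in the CTCF degron line with IAA stood at 1.07% of all junctions in replicate 1 and at 0.458% to 0.687% in the others. V1 in that line without IAA stood at 0.0228% in replicate 1 and at 0.00183% to 0.00768% in the others. In the untreated tag-only line, V3 stood at 0.0826% of all junctions in replicate 3 (others at most 0.0474%), V1 at 0.275% of VH junctions in replicate 1 (others at most 0.157%), and V2 at 0.0612% of VH junctions in replicate 3 (others at least 0.0939%). In the untreated OsTIR1-only line, V1 stood at 0.0105% in replicate 3 (others at most 0.00474%) and V3 at 0.0237% in replicate 2 (others at most 0.00711%).

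The remaining 6 values are single junctions in groups where the other replicates had 0. These were V2 in the OsTIR1-only line, with IAA in replicate 2 (0.00192% of all junctions, 0.0474% of VH junctions) and without IAA in replicate 3 (0.00105% and 0.0181%), and V3 in the untreated IGCR1-deleted Rad21 degron line in replicate 1 (0.0074% and 0.014%). No cause was tested for any of these values.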

How the results depend on the processing

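Differences are on the log2 scale. Of 233 alternatives to the 12 tested differences of V1, V2 and V3, 203 kept the direction and the side of the threshold, 8 no longer passed, 1 newly passed and 21 changed direction. For V1 in bone marrow against parental cells on the VH scale, which did not pass, the value was -0.97 with median-of-ratios scaling, -0.12 with b libraries only and -0.24 with unweighted limma. For V3 with IAA in parental cells it was -0.12 with median-of-ratios scaling, -0.14 with a pseudocount of 2, -0.34 with identical junctions counted once and -0.15 unweighted. On the VH scale it was -0.11 with a pseudocount of 2, -0.12 with identical junctions once, -0.10 unweighted and -0.004 with distinct joins once. For V3 with IAA in the tag-only line on the VH scale it was 0.036 with b libraries only. The cause was not tested. Leaving out 1 replicate at a time, V3 with IAA ranged from -0.15 to 0.25 (VH scale -0.11 to 0.32) in parental cells and from -0.40 to 0.024 (VH scale -0.23 to 0.092) in the tag-only line; none of these passed. V1 in bone marrow on the scale of all junctions no longer passed with median-of-ratios scaling (0.93). V2 against parental cells in bone marrow no longer passed on the VH scale with a pseudocount of 2 (0.96) or with a or b libraries only (1.22 and 1.55).

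The number of the 3 segments past the threshold was 0 in the comparisons where they lay under the minimum; without a minimum it was 1 for the IGCR1 deletion, 2 for IAA with IGCR1 deleted and 1 for IAA in the Rad21 degron line, and with a minimum of 3 it was 1 for the untreated Rad21 degron line against parental cells. For the tag-only against parental cells it was 1, and 0 within the shared run. With the replicate number as a block, V1 in bone marrow was at 2.63 and 0.01 (VH scale), V3 in the tag-only against parental cells at 2.64 and 3.03, and V3 with IAA at 0.07 and 0.32 in parental and at -0.17 and -0.04 in tag-only cells; no call of a member changed under this block.

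Over all segments, the number past the threshold was 114 and fell to 69 with median-of-ratios scaling for bone marrow on the VH scale. For IAA in parental cells it was 9, and 5 with median-of-ratios scaling or 0 with identical junctions once; on the VH scale it was 0, and 2 without a minimum, 1 with a libraries only or 2 within 1 run. For IAA in the tag-only line it was 0, and 13 with the replicate block; on the VH scale it was 0, and 1 without a minimum or 2 with the block. For the tag-only against parental cells it was 26, and 4 with identical junctions once, 17 with a libraries only, 11 with b libraries only, 17 unweighted and 0 within 1 run; on the VH scale it was 24, and 6 with median-of-ratios scaling, 42 with a minimum of 3, 12 with b libraries only and 0 within 1 run.

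Of 216 alternatives to the junction features, 9 changed direction. Against other Ighv5-family joins, the insert length of V1 in bone marrow differed by 0.156 bases, the bases kept at V2 in bone marrow by -0.0211 and at V3 with IAA by -0.146, and the Ighd1 share of V1 with IAA by 0.594 percentage points. The in-frame share of V1 in bone marrow differed by -2.18 points with distinct joins once. Leaving out 1 replicate, the insert length of V1 in bone marrow ranged from -0.74 to 0.538 bases, its in-frame difference from -0.661 to 15.3 points and that of V3 with IAA from -1.77 to 0.0609 points. Of 196 alternatives to the levels, 186 moved them by less than 1 SD and 10, all with identical junctions counted once, by more. Outside bone marrow, the CTCF degron and the tag-only groups, none of the 3 segments exceeded 27 junctions in a replicate.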

Other observations

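The segment at 114998635, which differs from V3 at 1 of 288 bases and lies nearer the D array, was used more than V3 in all 6 bone marrow replicates (110 to 439 junctions against 48 to 232), in all 6 replicates of the CTCF degron line with IAA (237 to 339 against 139 to 230) and in all 6 without it (30 to 77 against 20 to 61). It was also used more in all 4 untreated parental replicates (3, 5, 82 and 59 junctions against 1, 2, 27 and 18). This difference between the segments was not tested.

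The most frequent VH end was the untrimmed one for V1 in bone marrow, with 109 of 245 junctions against 58 at the end 1 base shorter. At V2 and V3 in bone marrow these ends were about equally frequent. They held 70 and 76 of 234 junctions at V2 and 299 and 296 of 896 at V3. In the CTCF degron line with IAA the untrimmed end held 256 of 912 junctions at V1, 127 of 427 at V2 and 281 of 1059 at V3. The end 1 base shorter held 238, 115 and 240. Reads of the same join were counted separately here, and the differences were not tested.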
